A study of Rattus norvegicus with 13 samples.

Results

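The genes described here carry the apoptotic signal from the death receptor and the mitochondria to the initiator caspases, and were measured in the thyroid of rats whose mothers had received potassium iodide (KI) in pregnancy. They are 8 genes taken by name: Apaf1, Cycs, Casp9, Diablo and Xiap of the intrinsic (mitochondrial) arm, and Fas, Fadd and Casp8 of the extrinsic (death receptor) arm. Every probe that the array files give one of these names was kept, which made 17 of the 45598 gene probes of the array, 12 in the intrinsic and 5 in the extrinsic arm. The array names 36174 genes in all. The choice by name used no measured value, although it was made with earlier results of these arrays known.

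Thyroid RNA of 13 male Wistar rats was hybridised, 1 rat per one-colour array, with 6 KI-treated and 7 control animals. The mothers of the KI-treated group had been given 1 mg/kg/day of KI by gavage for 8 days from gestational day 9, and those of the control group a sodium chloride solution by the same route. The progeny was not dosed itself and was examined 51 days after birth, 30 days after weaning. Litters are not named in the labels, so rats that share a mother may stand in one group, and p-values measure the spread between arrays only. The question behind the comparison was whether repeated iodine thyroid blocking in utero leaves a lasting mark on gene expression in the offspring.

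Apoptosis is started along 2 routes. In the intrinsic route mitochondria release cytochrome c, the product of Cycs, which binds Apaf1, and the assembled apoptosome activates the initiator caspase-9. Diablo (Smac) leaves the mitochondria at the same time and removes the inhibitor Xiap from caspases. In the extrinsic route a ligand such as Faslg gathers the receptor Fas at the cell surface, Fas recruits the adaptor Fadd, and Fadd recruits and activates caspase-8. Both routes end in executioner caspases. These proteins are controlled largely by release, binding and cleavage, which an array of transcripts does not measure. In the thyroid, Fas signalling is best known from the follicular cell loss of autoimmune thyroiditis.

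Probes of Apaf1, Casp9, Cycs and Fadd are shown first, because a gene here could give opposite differences at different places of its transcript. The coordinates are those of the rat genome build rn4 in the array files, and each probe below was judged to lie in coding sequence from its transcript position and an open reading frame, since the array files do not mark coding bases. The Apaf1 probe starts at position 4296 of its transcript (chr7:27934664-27934723, minus strand). The Casp9 probe starts at position 1213 (chr5:160719541-160719600, plus strand). The second Cycs probe, not the brighter one that represents the gene below, starts at position 325 (chr4:78826694-78826753, minus strand). The Fadd probe starts at position 599 (chr1:205010420-205010479, minus strand). Each is a designed oligonucleotide of 60 bases, printed 5′ to 3′ in the sense of the transcript and in lower case throughout, since no part of it is singled out.
Apaf1: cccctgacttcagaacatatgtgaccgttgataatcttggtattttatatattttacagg
Casp9: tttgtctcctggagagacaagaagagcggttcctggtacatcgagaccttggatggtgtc
Cycs: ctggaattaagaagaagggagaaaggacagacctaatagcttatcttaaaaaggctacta
Fadd: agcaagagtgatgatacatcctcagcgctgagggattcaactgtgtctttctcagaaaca

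All levels below are log2 of the processed fluorescence signal minus the 75th percentile of the same array, so that 0 is the signal at that percentile, and all differences are the KI-treated minus the control mean on this log2 scale. Levels of different probes depend on the probe and are not compared with each other. A probe was tested when it was well above background, by the scanner software's flag, on at least 6 arrays. This held for 15 of the 17 probes and for 7 of the 8 genes, Fas being the exception. A gene with several probes is represented by its brightest one, and for the 8 genes the other probes are given beside it. In whole tissue, fewer cells of one type and less RNA per cell cannot be told apart.

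The arrays were those of a thyroid: 9 of 10 follicular cell markers, thyroglobulin and Pax8 among them, were well above background on all 13 arrays, and Slc26a4 on none. Their summed level was between 10.15 and 10.34 after KI and between 10.24 and 10.86 in controls. On 3 arrays the signal stood apart. In controls 4 and 6, later probes of a transcript were brighter against its earlier probes than on the other arrays. The median of later minus earlier probes was taken over 1196 transcripts, each about its mean over the arrays. It was 0.46 in control 4 and 0.27 in control 6, against 0.10 in control 7 and -0.14 to -0.02 in the other 10. Controls 4 and 6 also had the lowest 75th percentiles, 8.18 and 7.92 against 8.48 to 9.10 in the rest. Their weights in limma's estimate of array quality were the lowest too, 0.17 and 0.25 against 0.70 to 2.09. KI 1 carried signal of lymphocytes, summed over 11 markers to 4.62 against -0.44 to 1.46 on the other arrays, and of thymocytes, 0.97 over 2 markers against -6.17 to -3.69. Results are therefore given with and without controls 4 and 6, a choice made after the data were seen. The part of these arrays' RNA quality or of their cell content in the results was not tested.

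No gene of either arm passed the adjusted threshold. In limma, 0 of the 15 tested member probes had a Benjamini-Hochberg adjusted p under 0.05, and 0 of all 25717 tested probes had one (0%), with 0.257 as the smallest. At an unadjusted p under 0.05 there were 6 member probes (40%), 5 of them higher and 1 lower after KI. Of all tested probes 3271 had such a p (12.7%, with 5.71% higher and 7.01% lower). The higher member probes included both Casp8 probes, which share 33 bases, and the dim probes of Fadd and of Xiap at position 2933. Without controls 4 and 6 the count of member probes was 1 of 15, and the share of all tested probes 9.38% (5.91% lower). That probe was the Apaf1 probe printed above. It was also the 1 member probe whose groups did not overlap, as in 151 of all tested probes (0.587%). In this processing the typical tested probe lay slightly lower in the KI-treated group, with a median difference of -0.08. That median changed with the scaling and the arrays. It was -0.10 under normexp background correction, -0.02 under quantile normalization and -0.009 in the deposited values. With percentiles taken over gene spots it was 0.001, and without controls 4 and 6 it was -0.008.

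**Figure D1:**
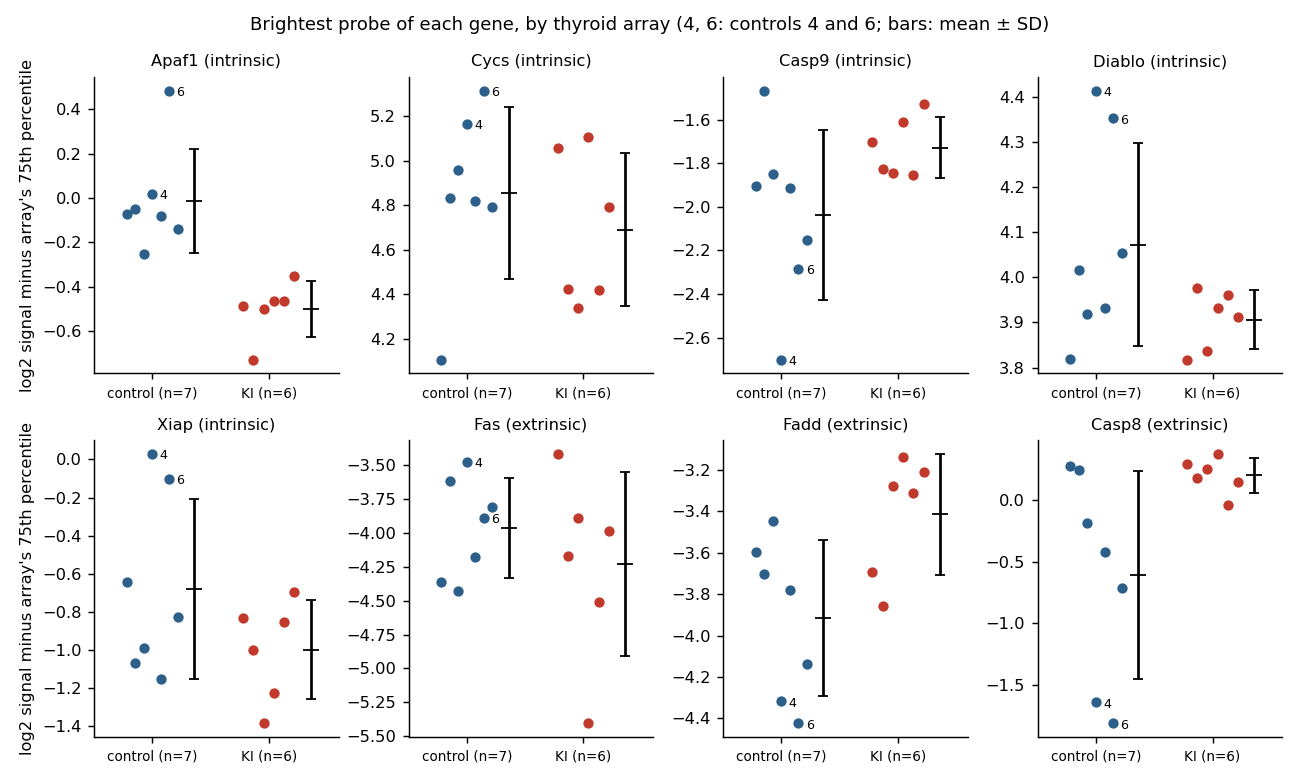
Level of the brightest probe of each gene on each array (log2 signal minus the array's 75th percentile; 7 control and 6 KI-treated arrays), with bars for mean ± SD and the numbers 4 and 6 marking controls 4 and 6. The Apaf1 groups do not overlap, and controls 4 and 6 sit at the high end of the controls for Apaf1, Cycs, Diablo and Xiap and at the low end for Casp9, Fadd and Casp8.

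Apaf1 forms the scaffold of the apoptosome. Its coding probe read -0.49, -0.73, -0.50, -0.47, -0.47 and -0.35 in the KI-treated animals. In the control animals it read -0.07, -0.05, -0.25, 0.02, -0.08, 0.48 and -0.14. Every KI-treated array lay below every control array, and control 6 was far above the other controls. The means were -0.50 ± 0.12 (SD, n = 6) and -0.01 ± 0.24 (SD, n = 7). The difference was -0.49 (SE 0.12, limma adjusted p = 0.342) and the exact two-sided permutation p over the 1716 splits of the arrays was 0.00117. Without controls 4 and 6 it was -0.38 (SE 0.08, limma adjusted p = 0.272), and the groups were still separate. Since the groups did not overlap, a negative difference was bound to appear on every slide and in every scan session. The signs there, like the exact permutation p, restate that separation. The difference lay between -0.98 and -0.30 on the 5 slides that held both groups. It was -0.87, -0.37 and -0.31 in the 3 scan sessions.

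A second Apaf1 probe went the other way. It starts at position 5624, 1328 bases later in the same transcript (chr7:27933335-27933395, minus strand). It read -1.50, -1.22, -1.39, -1.91, -1.65 and -1.70 in the KI-treated group, and -1.56, -1.36, -1.95, -2.55, -2.34, -3.16 and -2.04 in the control group. The groups overlapped. Controls 6 and 4, the highest arrays at the coding probe, were the lowest here. The difference was 0.58 (SE 0.25, limma adjusted p = 0.382). It was 0.29 (SE 0.18) without these controls.

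Whether both Apaf1 probes moved alike was tested on their difference within each array, later minus earlier probe. It was -1.06 ± 0.35 (SD, n = 6) for KI-treated animals and -2.13 ± 0.80 (SD, n = 7) for controls. These differ by 1.06, with an exact permutation p of 0.00583 (two-sided). Without controls 4 and 6 the difference was 0.67 with an exact permutation p of 0.0130. The lowest within-array values of the 13 were those of controls 4 and 6, -2.57 and -3.65. What part these arrays or the position of the probes had in this was not tested. The direction for Apaf1 therefore differed between its probes, and only the coding probe gave groups that did not overlap.

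**Figure D2:**
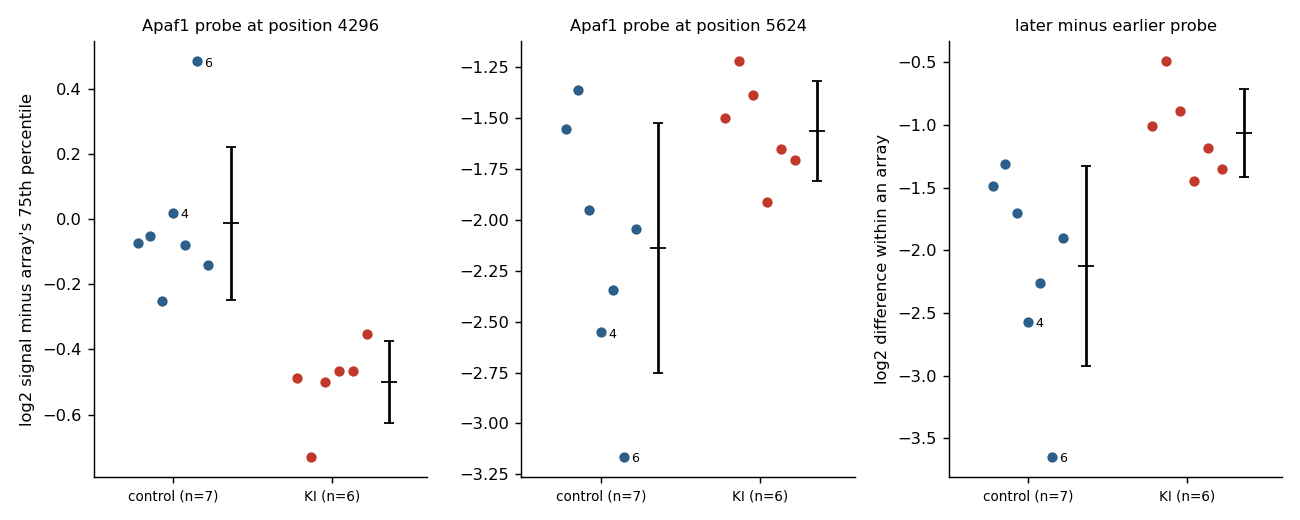
Both Apaf1 probes on each array (left and middle, log2 signal minus the array's 75th percentile) and their within-array difference (right, log2), with mean ± SD. The probe at position 4296 is lower in all 6 KI-treated arrays, the probe at 5624 tends the other way, and their difference averages -1.06 in the KI-treated and -2.13 in the control group.

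Cycs encodes cytochrome c, the electron carrier whose escape from mitochondria starts apoptosome assembly. Its brighter probe (position 1091; chr4:78825928-78825987) ranged from 4.34 to 5.11 with a median of 4.61 after KI, and from 4.10 to 5.32 with a median of 4.83 in controls. The ranges coincide almost wholly. The difference was -0.17 (SE 0.19, limma adjusted p = 0.658) and -0.01 without controls 4 and 6. The coding probe printed above gave 0.10 (SE 0.17, limma adjusted p = 0.760), and 0.22 (SE 0.18) without these controls.

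Casp9, the initiator caspase of the apoptosome, read -1.70, -1.83, -1.85, -1.61, -1.86 and -1.53 in the KI-treated group at its brighter probe. The controls read -1.90, -1.47, -1.85, -2.70, -1.91, -2.28 and -2.15. The KI-treated arrays lay close together, and the control group reached both above and below them. The difference was 0.31 (SE 0.17, limma adjusted p = 0.419; exact permutation p = 0.0839), and 0.13 (SE 0.12) without controls 4 and 6. Under normexp background correction it was 0.096. A second coding probe (position 521, chr5:160706833-160706892) was well above background on 5 of 6 KI-treated and 3 of 7 control arrays, and gave 0.29 (SE 0.17). This probe met the filter for testing only with the KI-treated arrays counted, the group where it was higher. The difference between both Casp9 probes did not separate the groups, at 0.02 with an exact permutation p of 0.890.

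Diablo encodes Smac, the mitochondrial protein that displaces IAP proteins from caspases, and has 1 probe, printed as 2 spots (position 1236; chr12:34209562-34209621). It lay between 3.82 and 3.98 in the KI-treated group, with an SD of 0.07, the narrowest of the 17 probes. The controls lay between 3.82 and 4.42, and the highest values were those of controls 4 (4.42) and 6 (4.35). The difference was -0.17 (SE 0.11, limma adjusted p = 0.489), and -0.04 (SE 0.07) without these controls.

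Xiap, a direct inhibitor of caspases, has 5 probes, which did not share a direction. The brightest (position 238; chrX:3047225-3047284) ranged from -1.39 to -0.70 in the KI-treated and from -1.16 to 0.03 in the control group, where controls 4 and 6 were again the highest. Its difference was -0.32 (SE 0.21, limma adjusted p = 0.469), and -0.06 without these controls. The others gave 0.32, 0.07, -0.09 and 0.75, and the first 3 of these 0.02, -0.02 and 0.07 without controls 4 and 6. The last of these, at position 2933 of a predicted longer transcript (chrX:3010963-3011022), was dim, being well above background on 6 of 6 KI-treated and 4 of 7 control arrays. This probe met the filter for testing only with the KI-treated arrays, the group where it was higher. It read between -3.56 and -2.70 in the KI-treated and between -4.66 and -2.88 in the control group, a difference of 0.75 (SE 0.28, limma adjusted p = 0.359). Its size hardly depended on controls 4 and 6 (0.70 without them, SE 0.32). Against a probe 2339 bases later in the same transcript, which itself gave 0.07, its within-array difference shifted by -0.68. That shift carries the same selection by the filter, so no p is given for it. Another Xiap pair, 2170 bases apart, shifted by 0.23 (exact permutation p = 0.341). In all, 7 such pairs were compared over the 8 genes, and the p-values given for them are not adjusted.

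**Figure D3:**
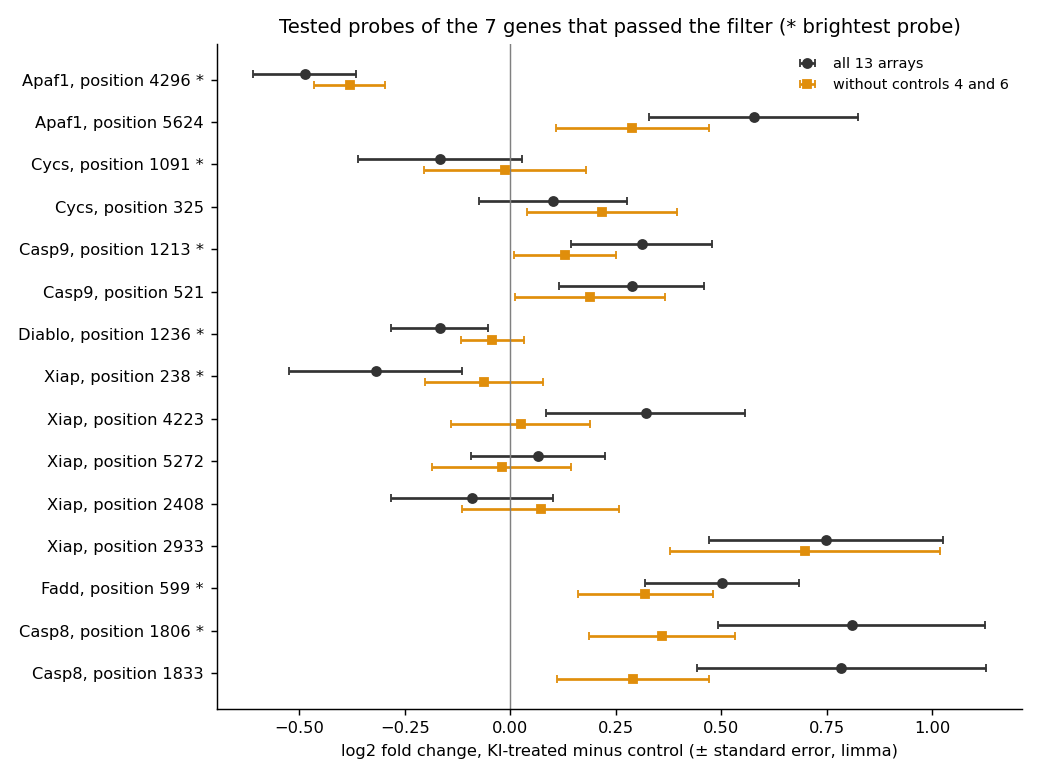
Difference between the groups (KI-treated minus control, log2, with limma's standard error) for the 15 tested probes, over all 13 arrays (circles) and without controls 4 and 6 (squares); positions are starts in the transcript and * marks the brightest probe. Most differences shrink without these controls (Casp8 from 0.81 to 0.36, SE 0.17). Without them Apaf1 at position 4296 is -0.38 (SE 0.08). Xiap at 2933, which met the filter only with the KI-treated arrays, is then 0.70 with a wide SE of 0.32.

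Fas, the death receptor itself, was near the limit of measurement. Its brighter probe (position 2494; chr1:238274686-238274745) was well above background on 3 of 6 KI-treated and 2 of 7 control arrays. It ranged from -5.41 to -3.42 in the KI-treated group, the highest value being that of KI 1, whereas the controls ranged from -4.43 to -3.48. No difference was tested on it. The second probe (position 164; chr1:238259523-238259582) was well above background on 2 KI-treated arrays and on none of the 7 control arrays. Its measured means were -4.53 and -5.03. No fold is given for it, since the bound set by the lowest signal well above background was under 1.

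Fadd is the adaptor that links the receptor to caspase-8. It read -3.69, -3.86, -3.28, -3.14, -3.31 and -3.21 in the KI-treated group. It read -3.60, -3.70, -3.45, -4.32, -3.78, -4.42 and -4.14 in the control group, where it was well above background on 3 of 7 arrays against 6 of 6. Fadd thus met the filter for testing only with the KI-treated arrays, the group where it was higher, and its p-values below carry that selection. The KI-treated arrays were mostly the higher ones, but KI 1 and KI 2 lay among the controls. The means were -3.41 ± 0.29 (SD, n = 6) and -3.92 ± 0.38 (SD, n = 7). The difference was 0.50 (SE 0.18, limma adjusted p = 0.358; exact permutation p = 0.0256), and 0.32 (SE 0.16; exact permutation p = 0.0887) without controls 4 and 6. By scan session the difference was 0.80, 0.25 and 0.65. The first session had controls 4 and 6 as its only controls, and the third had 1 KI-treated array. Under normexp background correction the Fadd difference was -0.025, so the direction of this dim probe differed with the background correction.

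Casp8, the initiator caspase of the death receptor route, gave the largest difference of the 8 brightest probes. At position 1806 (chr9:57437607-57437666, plus strand) it read 0.29, 0.18, 0.25, 0.38, -0.04 and 0.14 in the KI-treated group. In the control group it read 0.28, 0.24, -0.19, -1.65, -0.42, -1.82 and -0.71. Controls 1 and 2 lay among the KI-treated arrays, and controls 4 and 6 far below all others. The spread was accordingly unequal, with means of 0.20 ± 0.14 (SD, n = 6) and -0.61 ± 0.84 (SD, n = 7). The difference was 0.81 (SE 0.32, limma adjusted p = 0.369; exact permutation p = 0.0344).

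This Casp8 difference depended on the arrays used. Without controls 4 and 6 it was 0.36 (SE 0.17, limma adjusted p = 0.553; exact permutation p = 0.0801). Within the scan session that held both of these controls it was 1.94, in the second session -0.13 and in the third 0.81. The second Casp8 probe begins 27 bases later (chr9:57437634-57437693) and shares 33 bases with the first, so its 0.78 (SE 0.34) is the same stretch of the transcript measured again. It was 0.29 without controls 4 and 6.

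**Figure D4:**
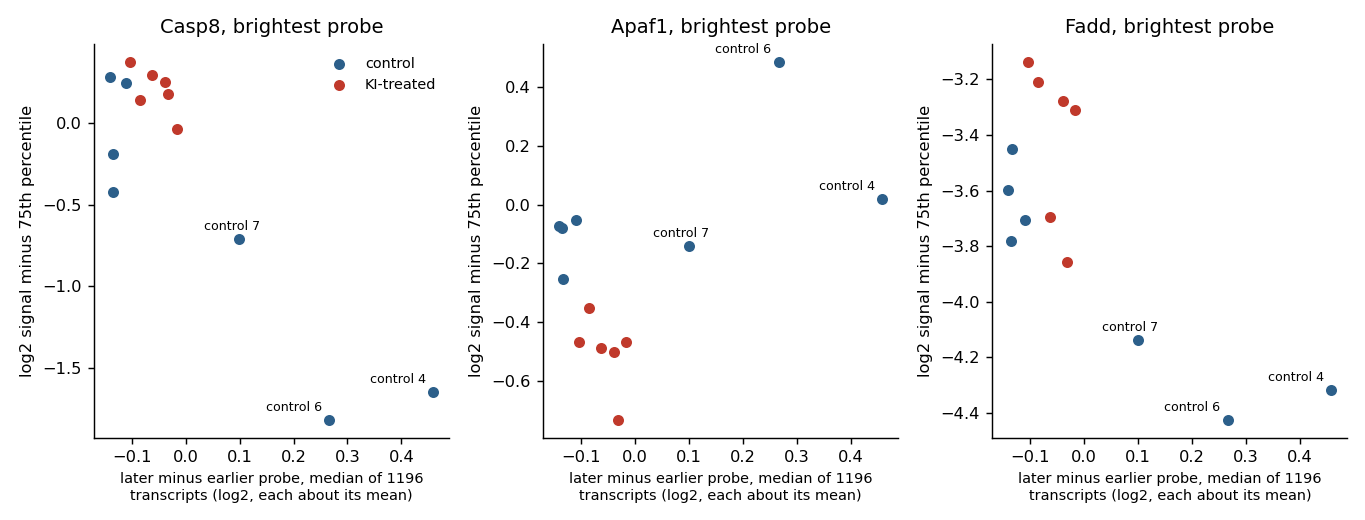
Level of the Casp8, Apaf1 and Fadd probes on each array (log2 signal minus the array's 75th percentile) against the median of later minus earlier probes over 1196 transcripts (log2, each transcript about its mean over the arrays). Controls 4 (0.46) and 6 (0.27) lie apart on the horizontal axis, with the lowest Casp8 and Fadd and the highest Apaf1 levels, and control 7 (0.10) comes next on that axis.

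Set side by side, the brightest probes had a median difference of -0.17 over the 5 intrinsic genes, 4 of them lower after KI. It was 0.65 over Fadd and Casp8, the tested extrinsic genes, which were both higher. Fadd met the filter only with the KI-treated arrays, being well above background on 3 of 7 control arrays. With Fas, which was mostly not well above background, the extrinsic median was the 0.50 of Fadd, and under normexp background correction it was -0.025, so that the arms no longer pointed opposite ways. The 5th and 95th percentiles of all tested probes were -0.47 and 0.51, so that Apaf1 and Casp8 were outside this range and the other tested genes inside. Taking in each array the median deviation of an arm's genes, the intrinsic arm ranged from -0.49 to -0.06 over KI-treated arrays and from -0.15 to 0.46 over control arrays. The extrinsic arm ranged from 0.06 to 0.78 and from -0.51 to 0.42. Both arms overlapped between the groups. Controls 4 and 6 were the 2 highest arrays for the intrinsic arm (0.31 and 0.46) and the 2 lowest for the extrinsic arm (-0.40 and -0.51). Without them the median difference was -0.04 over the 5 intrinsic genes, 0.34 over Fadd and Casp8, and 0.32 with Fas included. The contrast between the arms was described only, because the genes were chosen with results known.

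Of the genes around the death receptors, 15 of 17 were tested, and 1 was higher and 0 were lower at an unadjusted limma p under 0.05, where 5.71% and 7.01% of all tested probes were. The median difference over the 15 was 0.09. The gene was Ripk1, the kinase that steers the receptor complex towards survival or necroptosis. It read between 0.39 and 1.47 in the KI-treated group and between -0.25 and 0.44 in the control group, where control 1 overlapped with the KI-treated arrays. The highest value was that of KI 3. The difference was 0.49 (SE 0.18, limma adjusted p = 0.364), but 0.32 without KI 3 and 0.36 (SE 0.19) without controls 4 and 6. Faslg, the ligand of Fas, gave -0.13 (SE 0.15, limma adjusted p = 0.669), and -0.016 without controls 4 and 6. Cflar, which encodes the inhibitor of caspase-8 activation c-FLIP, gave -0.15 (SE 0.18) at its brightest probe, 0.04 there without controls 4 and 6, and 0.21 and 0.15 at its other probes.

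Of the genes of the mitochondrial arm outside the 8, the array named 12 of 13 and 10 were tested, with 2 higher and 1 lower at an unadjusted p under 0.05 (5.71% and 7.01% over all tested probes) and a median difference of -0.03. Aven, which encodes an inhibitor that binds Apaf1, read between -1.25 and -0.90 in the KI-treated group and between -2.03 and -1.27 in the control group. These groups did not overlap, as in 0.587% of all tested probes, and the gap between KI 6 and control 3 was small. The difference was 0.41 (SE 0.14, limma adjusted p = 0.354), and 0.24 (SE 0.09) without controls 4 and 6. Birc3, which encodes the ubiquitin ligase cIAP2, gave 0.51 (SE 0.18, limma adjusted p = 0.354), and 0.29 (SE 0.12) without controls 4 and 6. Casp2 gave -0.26 (SE 0.12, limma adjusted p = 0.388), and its KI-treated range of 2.28 to 2.73 overlapped with the control range of 2.64 to 3.15.

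At the common end of both routes, the 6 executioner caspase and substrate genes examined were all tested. By direction alone 1 lay higher and 5 lower, with a median difference of -0.19. At an unadjusted limma p under 0.05, 0 were higher and 1 was lower, where 5.71% and 7.01% of all tested probes were. That was Rock1, the kinase behind membrane blebbing, at -0.30 (SE 0.13, limma adjusted p = 0.382), and -0.17 (SE 0.09) without controls 4 and 6. Its other probes gave -0.22 and 0.25. Of 5 inflammatory caspase genes, 4 were tested and none reached an unadjusted p under 0.05. In none of these lists did a gene pass the adjusted threshold. Without controls 4 and 6 the genes with an unadjusted p under 0.05 were Ripk3 (0.26), Birc3 and Aven, which were higher, and Acin1 (-0.53), which like Apaf1 was lower. The share over all tested probes was then 9.38%.

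**Figure D5:**
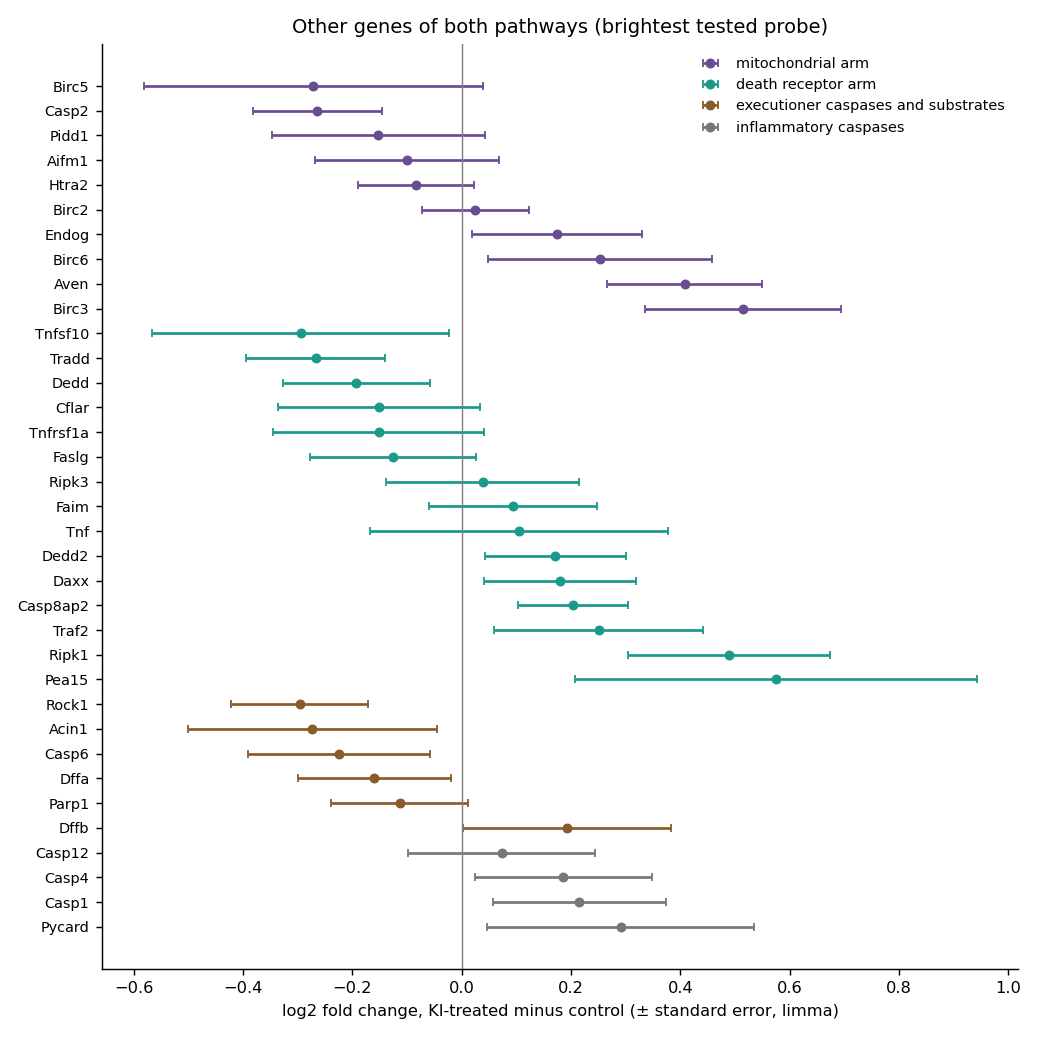
Difference between the groups (KI-treated minus control, log2, with limma's standard error) of the other tested genes of both routes, sorted within each list. Birc3 (0.51), Ripk1 (0.49) and Aven (0.41) lie highest among those with an unadjusted p under 0.05, and Rock1 (-0.30) and Casp2 (-0.26) lie below 0.

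Other cell types were examined by their summed marker levels. Skeletal muscle markers ranged from 2.15 to 5.92 in the KI-treated and from 3.97 to 6.79 in the control group, and macrophage markers from 2.72 to 3.24 and from 2.91 to 3.57. Endothelial markers were highest in controls 4 (7.11) and 6 (7.06), against 6.07 to 6.64 elsewhere. The sums of parathyroid (9.20 and 9.38), erythroid (8.58 and 8.94) and follicular markers (10.86 and 10.84) were highest there too. By the mean over probes this held for endothelial (3.38 and 3.33) and follicular markers (3.63 and 3.71) only. The parathyroid mean was 3.91 and 3.70 in these controls, against 3.98 in KI 1. The erythroid mean was 3.28 and 3.87, against 3.89 in KI 1. The part of any of these cell types in the values of Apaf1, Diablo, Fadd and Casp8 was not tested. Leaving out KI 1, with its lymphocyte signal, changed Casp8 to 0.79 and Fadd to 0.56 and left Apaf1 at -0.49.

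For each gene, the genes whose levels followed it most closely over the 13 arrays were found among 20672 genes (20673 for Fas) by Pearson's r. These are descriptions, since all points share the arrays and their scaling. Casp8 was followed by Ergic2 (r = 0.98), and without controls 4 and 6 their r was 0.88 over 11 arrays. Diablo was followed by Lamtor2 and Naa30 (r = 0.98 each), with 0.89 and 0.90 over 11 arrays. Casp9 was nearest to Rrp1b and Pip4k2c (r = 0.97 each) and Xiap to Dpp9 (r = 0.97). Cycs was followed by Apln (r = 0.96) and by Hspe1, a mitochondrial chaperonin gene (r = 0.96), and kept these values without controls 4 and 6 (0.96 and 0.98). Apaf1 was nearest to LOC685544 and Clp1 (r = 0.91 each), Fadd to Il17rb (r = 0.94) and Fas to Ppm1l (r = 0.86). None of the 8 genes was among the 3 closest genes of another.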

How the data were processed

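The authors deposited one Agilent Feature Extraction (10.7.3.1) file per array, with fluorescence intensity per spot after background subtraction and no scaling between arrays, and a table of log2 values, normalized by a method not given in the sources used here (array medians 6.83 to 6.95). Tables held 0 columns of other samples. Of 58717 gene spots per array, 34840 to 41050 were well above background and 0 saturated. The number of arrays, 6 and 7, limits precision.

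From the scanner files, outlier-flagged spots were dropped, log2 processed signals averaged per probe, and the array's 75th percentile over probes subtracted. The 25717 probes carrying the well-above-background flag on 6 or more arrays were tested with limma 3.58.1 (R 4.3.3, lmFit, eBayes, Benjamini-Hochberg, 0.05). On simulated data with 200 shifted probes, this fit recovered 2.5% of them at a log2 change of 0.5. It recovered 66.5% at 1 and 95.5% at 2, so changes of the size seen here would mostly not pass the adjusted threshold. Single values had exact two-sided permutation tests. Figures used Python 3.11.15. Replicate numbers were checked for pairing and did not pair the arrays. Scan sessions and slides are those of the file headers. All probes of the 8 genes, pathway genes with unadjusted p under 0.05 (up to 10) with Faslg, and the 3 closest genes per gene were to be named. A few other genes of the lists are not reported here and were left out of the counts. Cflar, Ripk3 and Acin1 were named outside this rule. Members and lists were chosen with earlier results of these data known. Alternatives were quantile or normexp (offset 50) processing, deposited values, filters, blocks, array weights, robust variances, the methods' t-test, other probes and leaving out arrays; gene-spot percentiles and leaving out controls 4 and 6 were added after seeing the data.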

Additional observations from a re-analysis of the deposited data

Results flagged for a closer look

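Apaf1 in control 6 stood apart from its group at the coding probe. It read 0.48, where the next control array read 0.02, a gap of 0.63 of the control group's range. It was the 1 value marked among 16 gene and group combinations examined with Dixon's criterion, which marks about 1 in 20 by chance. Control 6 is one of the arrays with relatively bright later probes, and without it the Apaf1 difference was -0.40.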

How the results depend on the processing

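With array weights, 50 probes passed the adjusted threshold (smallest adjusted p 0.0153), none of them of the 8 genes, where Apaf1 came nearest at a limma adjusted p of 0.0852. Leaving out 1 array gave 0 to 1 probes, 1 without control 1 and 1 without control 2. All other settings gave 0, the methods' t-test among them (3142 at an unadjusted p under 0.05). Normexp background correction turned Fadd to -0.025 and with it the extrinsic median to -0.025. Taking another probe turned Apaf1 to 0.58, Cycs to 0.10 and Xiap to 0.32, 0.066 and 0.75; the cause was not tested. Apaf1's coding probe stayed between -0.53 and -0.37 and Casp8 between 0.36 and 0.96 over the settings tried, single arrays left out included. The filter on all 13 arrays left Fadd without a value.

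The number of probes at an unadjusted p under 0.05 was 5120 with scan session as a block. Its split into higher and lower was 1469 and 1802 in the reported processing, 1166 and 3427 under normexp, 1823 and 1432 under quantile normalization, 1886 and 1359 in the deposited values, and 1789 and 1109 with percentiles over gene spots. Same-numbered arrays did not deviate together (correlations -0.11 to 0.07, none best with its own number). The replicate block gave 0 adjusted probes and 2356 at an unadjusted p under 0.05, with Casp8 at 0.79 and Apaf1 at -0.51. Dim probes such as Fas and Fadd are limited by signal over background.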
